A study of Mus musculus with 8 samples.

Results

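Smooth muscle cells hold blood vessels under tension with a contractile apparatus of actin and myosin filaments, and 33 genes of that apparatus are described here across the cells of the young mouse ascending aorta. They are 33 of the 32285 genes measured and were chosen by name: the smooth muscle actins, myosin chains, regulators of myosin phosphorylation, thin filament proteins, proteins of the dense bodies and cell edge where filaments are anchored, and Des, Myocd, Mustn1 and Sncg. All 33 symbols matched 1 row each. The cells came from the ascending thoracic aorta of 3 wild-type mice aged 11, 12 and 13 weeks, with no treatment or other genotype listed; the labels name neither strain nor sex. The suspension, digested for 60 min at 37 °C with collagenase and elastase, was sequenced by droplet 3′ RNA sequencing with 1 hashtag antibody per age. The labels tie each hashtag to an age and not to a named mouse, so that each hashtag sample (1, 2 and 3 for 11, 12 and 13 weeks) is 1 animal is inferred from 3 mice and 3 hashtags.

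Smooth muscle contracts when calcium binds calmodulin and activates myosin light chain kinase, the product of Mylk. The kinase phosphorylates the regulatory light chain encoded by Myl9, which lets the myosin heavy chain of Myh11 pull on filaments built from Acta2. Myosin phosphatase, whose targeting subunits come from Ppp1r12a and Ppp1r12b, reverses this step and is inhibited by the product of Ppp1r14a (CPI-17). Many of these genes are switched on together by serum response factor, which binds a short DNA element, the CArG box, with the muscle coactivator myocardin, encoded by Myocd. In the aorta the contractile cells form the media, fibroblasts the adventitia, and endothelial cells the inner lining and the small vessels of the wall.

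CArG boxes were looked for in the 250 bases before the annotated start of each gene (RefSeq, build GRCm38.p6), since serum response factor is known to act through them. Of the 33 genes, 28 had an entry, and 4 of these 28 (14.3%) held a box that fits the consensus, against 1.62% of all 27025 genes with an entry. The consensus reads the same on both strands, so 1 search covered both. The 4 are Cnn2, Myl9, Myl6 and Ldb3. Below, the box is in capitals, the whole window is shown for Cnn2 and 30 bases around the box for the others, each 5′ to 3′ on the strand of its gene. Acta2 is added for contrast, since its best known boxes differ from the consensus: it held no exact match, and a pair of boxes that miss it by 1 base, a near match found in 7.24% of all 32851 windows.
Cnn2, chr10:79988350-79988599, + strand: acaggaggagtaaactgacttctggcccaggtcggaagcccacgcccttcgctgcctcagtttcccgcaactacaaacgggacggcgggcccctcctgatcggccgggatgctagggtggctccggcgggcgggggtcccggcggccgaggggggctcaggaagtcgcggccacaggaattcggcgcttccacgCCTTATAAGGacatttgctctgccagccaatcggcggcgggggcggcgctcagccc
Myl9, chr2:156775293-156775322, + strand: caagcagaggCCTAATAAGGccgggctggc
Myl6, chr10:128493040-128493069, - strand: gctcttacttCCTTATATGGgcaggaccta
Ldb3, chr14:34588697-34588726, - strand: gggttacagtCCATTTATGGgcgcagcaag
Acta2, chr19:34255438-34255467, - strand: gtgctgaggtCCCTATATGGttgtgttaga
Acta2, chr19:34255388-34255417, - strand: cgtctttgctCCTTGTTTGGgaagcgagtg
The Cnn2 box begins 56 bases before the start, the Myl6 box 50 and the Myl9 box 161. The Ldb3 box begins 35 bases before 1 annotated start and 109 before another. The near matches of Acta2 begin 84 and 34 bases before it. A match is a string of letters, not shown binding. Tagln, Csrp2, Myh11, Actg2 and Myocd had no entry.

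Cells were sorted by rule into gates, groups defined by the transcripts they carry. The filter (at least 500 genes, no more than 20% mitochondrial UMIs and under 10 haemoglobin UMIs) kept 9939 of 48467 barcodes, with a median of 6592 UMIs. A UMI is 1 captured transcript molecule, counted at its 3′ end, so levels of different genes need no correction for length. The SMC gate (Des, Cnn1, Lmod1, Synpo2 and Itga8 summing to at least 3 UMIs) held 7113 barcodes with a median of 7232 UMIs. The fibroblast gate (Dcn at least 0.3% of UMIs) held 1020 with 4244, the endothelial gate (Pecam1, Cdh5 and Gpihbp1 at least 3 UMIs) 540 with 2443, and the pericyte gate (Higd1b, Vtn and Cox4i2 at least 2 UMIs) 7 with 2291. Barcodes in more than 1 gate (1011) were dropped and 97 fell in none. A leukocyte gate of 151 barcodes with a median of 2856 UMIs was added as the background level of smooth muscle RNA, because aortic leukocytes are not known to make the smooth muscle isoforms. Des, Cnn1, Lmod1 and Synpo2 chose the SMC gate, and a barcode rich in them was kept out of every other gate. Their levels between gates are therefore a description, and the counts of genes called between gates cover the other 29.

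Markers that set no gate went with the gates. In the hashtag samples, the 4 other fibroblast markers (Lum, Pdgfra, Col1a1, Gsn) summed to 10710 to 12810 CPM (UMIs scaled to a common total per sum) in the fibroblast gate and at most 904 elsewhere. The 4 other endothelial markers summed to 3635 to 3976 in the endothelial gate and at most 157 elsewhere, and 5 other leukocyte markers to 2902 to 8116 in the leukocyte gate and at most 130 elsewhere. Cardiac markers (Myh6, Tnni3, Actc1) reached 16.3 CPM in 1 SMC sample and 5.05 at most in the other sums, and skeletal ones (Acta1, Ckm) 3.31. Mesothelial markers lay at 219, 539 and 72.8 CPM in the fibroblast gate, and adipocyte markers at 54.8, 164 and 88.5 in the endothelial gate. The part of these other cell types in the results was not tested. Of the 9939 barcodes, 2690 (27.1%) carried a single hashtag and entered the tests, 563, 433 and 537 of them in the SMC gate, 89, 52 and 67 in the fibroblast gate, 173, 102 and 139 in the endothelial gate and 40, 23 and 54 in the leukocyte gate. No hashtag was found on 66.5% of SMC and 70.3% of fibroblast barcodes, against 2.59% of endothelial ones. The tests therefore rest on the hashtagged minority of the muscle and fibroblast cells. A second caller was far sparser: of the 1025, 721 and 944 barcodes given hashtags 1, 2 and 3, it gave 308, 146 and 120 the same call and 0 a different one. Both callers read the same hashtag counts, so the 0 is no independent check. The second caller called 96, 33 and 31 barcodes in the SMC gate and 16, 4 and 5 in the fibroblast gate. In the endothelial gate it called 131, 83 and 48. Whether the calls in muscle and fibroblasts separate the animals was not tested.

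The contractile genes filled a large and steady share of the muscle transcriptome. The 33 genes made up 7.52% of all UMIs of the SMC gate, 0.755% in the fibroblast gate, 1.09% in the endothelial gate and 0.846% in the leukocyte gate. In the hashtagged cells the SMC share was 7.33%, 7.29% and 7.37% in hashtag samples 1, 2 and 3 (mean 7.33% ± 0.0441, SD, n = 3). The same mean was 0.756% ± 0.00833 for fibroblasts, 1.08% ± 0.0885 for endothelial cells and 0.846% ± 0.0933 for leukocytes. The 3 hashtag samples thus lay close together, and each SMC value was above every value of the other gates. Whether hashtag calls that mix animals add to this closeness was not tested. From cell to cell the SMC share ran from 4.29% at the 5th percentile over a median of 7.52% to 10.0% at the 95th. The share moved with mitochondrial content: in barcodes with at most 10% mitochondrial UMIs and in those above, it was 7.75% and 7.22% in the SMC gate, 0.712% and 0.836% in the fibroblast gate, 0.868% and 1.18% in the endothelial gate and 0.595% and 0.984% in the leukocyte gate. Fibroblasts thus lay under leukocytes over all barcodes and above them at no more than 10% mitochondrial UMIs, where the leukocyte gate held 32 barcodes. The part of damaged cells in these shares was not tested.

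**Figure D1:**
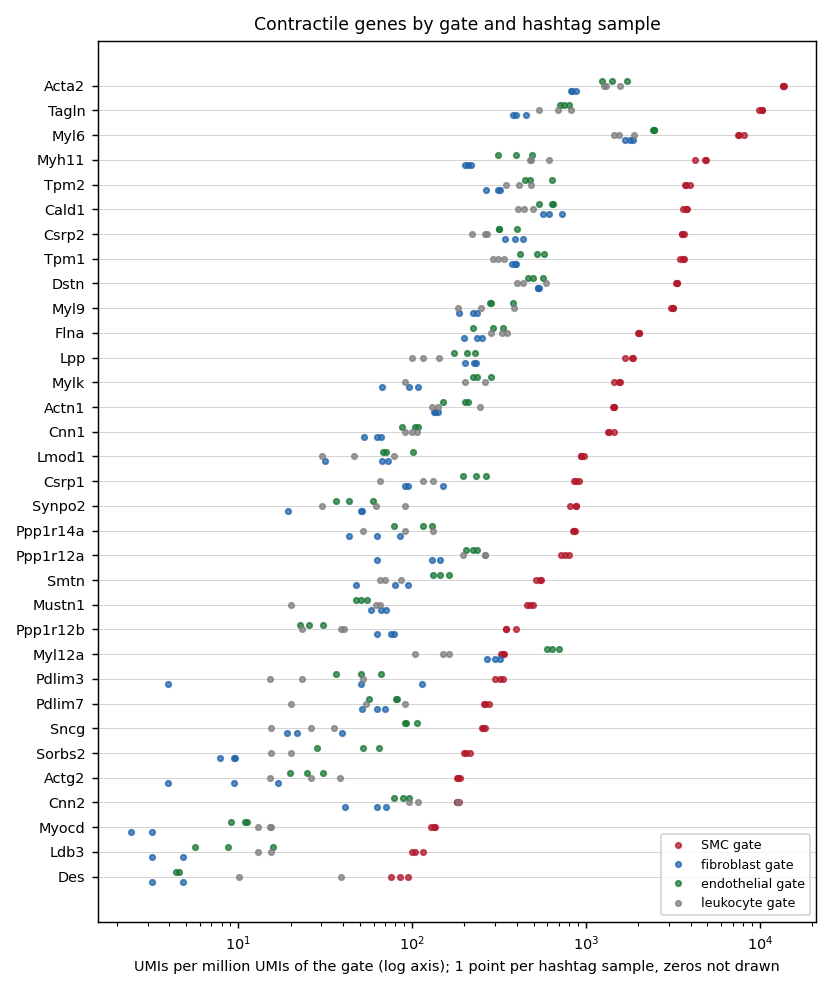
Level of each of the 33 contractile genes (rows) in CPM on a log axis, 1 point per hashtag sample, for the SMC, fibroblast, endothelial and leukocyte gates (zeros are not drawn). The red SMC points lie to the right of the others for every gene but Myl12a, whose green endothelial points are highest, and Cnn2, whose SMC and leukocyte points meet.

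The order of levels within the SMC gate was led by the thin filament. Acta2, the main vascular smooth muscle actin, stood at 13539, 13747 and 13612 CPM in hashtag samples 1, 2 and 3. Tagln (transgelin, an actin cross-linker) followed at 10317, 9922 and 10257 CPM, and Myl6, the essential myosin light chain, at 7483, 8132 and 7624 CPM. Each of these ranges lay apart from the next. Myh11 had 4819, 4260 and 4892 CPM, the lowest value being in hashtag sample 2. The next genes, Tpm2, Cald1, Csrp2 and Tpm1, had means of 3816 ± 128, 3713 ± 102, 3595 ± 49.7 and 3582 ± 101 CPM (SD, n = 3), so neighbours in this group did not differ beyond their spread. At the low end stood Cnn2 at 183 ± 2.81, Myocd at 133 ± 3.99, Ldb3 at 106 ± 7.71 and Des at 85.6 ± 9.48 CPM. Des, the muscle intermediate filament protein, had the widest relative spread between hashtag samples (95, 85.6 and 76.0 CPM, a coefficient of variation of 11.1%), and Actn1 the narrowest (0.662%). With 1 hashtag sample per age, age and animal cannot be told apart, and no test was made between ages.

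Against fibroblasts, nearly the whole apparatus was lower than in muscle. All 33 genes passed the filter on low counts. Of the 29 that did not choose the gate, 28 were lower in the fibroblast gate, 0 were higher and 1 did not pass the test, where 18.4% of all 6897 genes tested were lower and 19% higher. For a higher level, edgeR gave 0 of the 29 an unadjusted p under 0.05 and DESeq2 called 0. The median log2 fold change was -3.25, beside -0.01 over all genes tested. On the TMM-scaled CPM that the test uses, here and in every count of this kind, the 3 hashtag samples did not overlap between the gates for any of the 29, as for 53.2% of all genes.

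The smooth muscle actins and the myosin heavy chain were lower in fibroblasts. Acta2 had 836, 819 and 876 CPM in the fibroblasts of hashtag samples 1, 2 and 3, a log2 fold change of -4.05 ± 0.12 from the SMC gate (adjusted p = 1.50e-20). The 3 fibroblast samples lay close together and far under the muscle samples. Actg2, the enteric smooth muscle actin, was rare in both, at 16.8, 3.94 and 9.49 CPM in fibroblasts against 182, 188 and 185 in muscle (-4.09 ± 0.28, adjusted p = 1.65e-12). Myh11, the smooth muscle heavy chain, had 219, 209 and 202 CPM in fibroblasts (-4.51 ± 0.14, adjusted p = 1.08e-19). Myl9 changed by -3.92 ± 0.16, while Myl6, a light chain that non-muscle myosin also uses, changed by -2.16 ± 0.09 and stood at 22.1% of its muscle level.

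Myl12a was the exception among the myosin chains. It encodes a regulatory light chain found with non-muscle myosin in most cells. Its level was 334, 338 and 326 CPM in muscle, 320, 299 and 269 in fibroblasts and 597, 637 and 699 in endothelial cells. Fibroblasts thus lay just under muscle and endothelial cells far above it, without overlap in either case. The test gave -0.20 ± 0.14 for fibroblasts (adjusted p = 0.298, 0.172 unadjusted) and 0.86 ± 0.13 for endothelial cells (adjusted p = 3.93e-06), which had 628 against 346 TMM-scaled CPM. How reads shared with its near copy Myl12b, or between the actin genes, were counted is not stated in the labels.

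Genes for the control of myosin phosphorylation were lower in fibroblasts as well, by unequal amounts. Mylk had 96.1, 66.9 and 108 CPM in fibroblasts and 1548, 1453 and 1574 in muscle (-4.11 ± 0.19). Ppp1r14a, the phosphatase inhibitor, changed by -3.79 ± 0.20. The phosphatase subunits changed less, Ppp1r12a by -2.77 ± 0.18 and Ppp1r12b by -2.38 ± 0.17. Fibroblasts stood at 14.7% and 18.3% of the muscle level for these subunits and at 8.84% for the inhibitor. Leukocytes stood at 27.3% for Ppp1r12a, 9.20% for Ppp1r12b and 11.7% for Ppp1r14a. Fibroblasts thus stood under leukocytes for Ppp1r12a and Ppp1r14a. No expression by fibroblasts is therefore read from Ppp1r14a. Leukocytes are known to express Ppp1r12a, so their level is no background for it. Whether fibroblasts express Ppp1r12a was not tested.

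Thin filament genes spread widely. Tagln, at 454, 394 and 383 CPM in fibroblasts, had one of the largest drops (-4.67 ± 0.12), and the tropomyosins Tpm2 and Tpm1, which lie along the actin filament, changed by -3.72 ± 0.14 and -3.26 ± 0.13. Smtn (smoothelin) changed by -2.93 ± 0.19, the actin-severing Dstn by -2.68 ± 0.12 and Cald1 (caldesmon), which also has a non-muscle form, by -2.59 ± 0.11. Cnn2, the calponin found outside muscle, changed by -1.69 ± 0.18 and stood at 30.9% of its muscle level.

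Dense body and LIM genes, which anchor and cross-link filaments, were all lower in fibroblasts. Ldb3 and Sorbs2 changed most, by -5.13 ± 0.44 and -4.52 ± 0.30, and Pdlim7 least, by -2.14 ± 0.20. Actn1 (alpha-actinin) changed by -3.46 ± 0.16 and Flna (filamin A) by -3.18 ± 0.15. Myocd, the coactivator, rested on 2 UMIs in the hashtagged fibroblasts. Over all fibroblast barcodes its 18 UMIs came to 2.86% of the muscle level (exact 95% Poisson interval of the count 1.70% to 4.53%), and the 22 UMIs of Ldb3 to 4.49% (2.81% to 6.80%). These intervals cover counting error alone.

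The endothelial gate differed from muscle in the same direction. Of the 29 genes, 28 were lower than in the SMC gate and 1, Myl12a, was higher, where 25.2% of all genes were lower and 24.3% higher. The median log2 fold change was -2.92, beside -0.03 over all genes. The values of all 29 were again apart, as for 62.4% of all genes. Acta2 had 1713, 1244 and 1412 CPM (-3.32 ± 0.11, adjusted p = 1.18e-19), Tagln 794, 708 and 745 (-3.86 ± 0.11) and Myh11 489, 310 and 395 (-3.64 ± 0.13). Hashtag sample 1 was highest for each of these 3 genes. The phosphatase subunit Ppp1r12b changed by -3.87 ± 0.19, one of the largest drops, while Ppp1r12a changed by -1.88 ± 0.16. Leukocytes had much the same levels over all barcodes. Ppp1r12b stood at 8.49% of the muscle level in endothelial cells and 9.20% in leukocytes, and Ppp1r12a at 27.5% and 27.3%. Sncg, a synuclein found in neurons and several vascular cell types, had 92.1, 107 and 90.8 CPM against 256, 254 and 263 in muscle (-1.51 ± 0.15), and Cnn2 changed by -1.16 ± 0.16. Fibroblast and endothelial comparisons share the muscle samples.

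The 4 genes of the gate were lower too when a gate without them was used. With muscle cells chosen by Itga8 alone (at least 2 UMIs), Des had 8.18 TMM-scaled CPM in fibroblasts and 90.1 in muscle (-3.47 ± 0.37, adjusted p = 3.72e-09) and 5.26 in endothelial cells (-3.96 ± 0.37). Cnn1 (calponin 1) changed by -3.93 ± 0.15 in fibroblasts and -3.51 ± 0.14 in endothelial cells, Lmod1 (leiomodin, which starts actin filaments) by -3.46 ± 0.17 and -3.16 ± 0.16, and Synpo2 by -3.80 ± 0.19 and -3.61 ± 0.18.

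**Figure D2:**
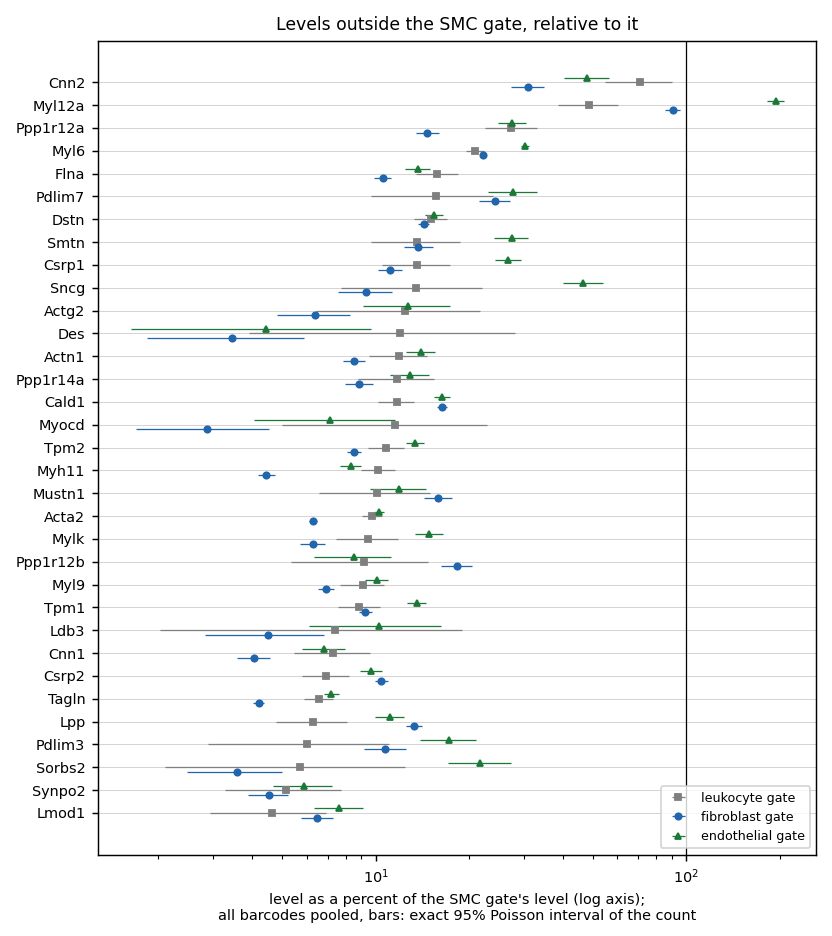
Level of each contractile gene in the leukocyte, fibroblast and endothelial gates as a percent of its level in the SMC gate (log axis), over all barcodes of a gate pooled, with exact 95% Poisson intervals of the counts; the line marks 100%, and the gate rule bounds Des, Cnn1, Lmod1 and Synpo2. Most genes sit between 3% and 30% in all 3 gates, and Myl12a (194% in endothelial cells) and Cnn2 (70.8% in leukocytes) stand to the right.

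The signal outside muscle was set against the leukocyte gate. Leukocytes carried Acta2 at 1296, 1578 and 1272 CPM, Tagln at 694, 822 and 540 and Myh11 at 486, 613 and 474. These are 9.71%, 6.57% and 10.2% of the muscle level over all barcodes, so RNA of the smooth muscle isoforms was present in barcodes of cells not known to make it. Cnn2 stood at 70.8% of the muscle level in leukocytes, Myl12a at 48.5%, Ppp1r12a at 27.3% and Myl6 at 20.9%. Leukocytes are known to express these 4 genes, for which the gate is thus no background. Whether leukocytes express others of the list that are not smooth muscle isoforms was not tested. Among these, Flna stood at 15.8% and Dstn at 15.1%. All 29 genes free of the rule were higher in the SMC gate than in leukocytes, where 25.4% of all genes were higher and 21.1% lower, and none overlapped between the gates, as for 60.2% of all genes. Unscaled, 1 leukocyte value of Cnn2 (183 CPM) fell within its muscle range. The least was Cnn2 (0.70 ± 0.21, adjusted p = 0.00725), which did not pass without hashtag sample 1 (0.59, adjusted p = 0.112) or 3 (0.52, adjusted p = 0.158).

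Fibroblasts differed from leukocytes in both directions. Of the 29 genes, 5 (17.2%) were higher than in leukocytes, 7 (24.1%) lower and 17 not called, beside 20.1% of all genes higher and 16.1% lower, so the share that was higher was near that of all genes. The hashtag samples of 14 did not overlap, beside 45% of all genes. The counts include Myl12a, Cnn2, Ppp1r12a and Myl6, which leukocytes express. Myl12a (1.08 ± 0.21, adjusted p = 1.87e-04), Lpp (0.96 ± 0.22, adjusted p = 7.92e-04), Cald1 (0.57 ± 0.14, adjusted p = 0.00164), Csrp2 (0.71 ± 0.17, adjusted p = 0.00129) and Ppp1r12b (1.10 ± 0.36, adjusted p = 0.0172) were higher. Lpp, a LIM protein of cell adhesions, had 226, 232 and 202 CPM in fibroblasts and 100, 143 and 116 in leukocytes. Myocd (-2.76 ± 0.94), Myh11 (-1.24 ± 0.17), Cnn2 (-0.99 ± 0.29), Ppp1r12a (-0.96 ± 0.23), Mylk (-0.80 ± 0.28), Tagln (-0.64 ± 0.13) and Acta2 (-0.64 ± 0.12) were lower. Acta2, Tagln and Myh11 thus lay under their level in leukocytes, and no expression by fibroblasts is read from them. The SMC rule is a fixed count of UMIs, so it keeps barcodes with muscle RNA out more strictly where depth is greater. Median depth was 4244 UMIs in fibroblasts and 2856 in leukocytes, and its part in these differences was not tested. Red cell markers (Hba-a1, Hbb-bs) also differed between gates over all barcodes. They summed to 560 CPM in fibroblasts, 876 in leukocytes, 818 in endothelial cells and 387 in muscle. The filter on haemoglobin is a fixed count of UMIs as well. The part of an unequal background in the differences between gates was not tested. Calls that did not hold without 1 sample were Csrp2 (0.53, adjusted p = 0.0873, without hashtag sample 3), Mylk (adjusted p = 0.187 and 0.278 without 1 and 2), Ppp1r12b (0.113, 0.0561 and 0.0869 without 1, 2 and 3) and Myocd (0.0954, 0.077 and 0.116). Calls gained were Tpm2 (-0.59, adjusted p = 0.0351) without sample 1, and Myl9 (-0.54, 0.0342) and Pdlim3 (2.12, 0.00474) without sample 2. Over the 9 alternatives run, Tpm2 passed as lower in 4 and Flna in 3. The comparison could not be run at no more than 10% mitochondrial UMIs, with under 10 leukocytes in a sum.

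Endothelial cells were set against the same leukocytes. Of the 29 genes, 10 (34.5%) were higher than in leukocytes, 0 lower and 19 not called, beside 18.6% of all genes higher and 14.6% lower. The genes that were higher include Myl12a and Myl6, which leukocytes express. The hashtag samples of 12 did not overlap, beside 42.6% of all genes. In the lower direction 1 gene, Myh11, reached an unadjusted p under 0.05 in edgeR, and DESeq2 called 0. Myl12a led (2.14 ± 0.20, adjusted p = 1.19e-09), followed by Sncg (1.80 ± 0.37, adjusted p = 3.23e-04) and Sorbs2 (1.65 ± 0.55, adjusted p = 0.0209). Sncg lay at 15.4, 26.1 and 35.3 CPM in leukocytes, under every endothelial value. Csrp1 (1.05 ± 0.25), Smtn (0.91 ± 0.28), Lpp (0.80 ± 0.21), Tpm1 (0.69 ± 0.15), Myl6 (0.60 ± 0.10), Csrp2 (0.47 ± 0.17) and Cald1 (0.45 ± 0.14) were also higher. Acta2 (0.09 ± 0.11, adjusted p = 0.596), Tagln (0.17 ± 0.12, adjusted p = 0.308) and Myh11 (-0.37 ± 0.15, adjusted p = 0.0662) were not called. Myh11 passed as lower without hashtag sample 1 (-0.66, adjusted p = 0.0151), with stricter gates (-0.52, 0.00503) and with muscle chosen by Itga8 alone (-0.38, 0.0446). Myl12a, Sncg, Csrp1 and Myl6 kept their call in all alternatives that could be run. Without hashtag sample 1, Cald1 (0.30, adjusted p = 0.281), Csrp2 (0.33, 0.33), Lpp (0.52, 0.192) and Smtn (0.67, 0.194) did not pass. Without sample 2, Sorbs2 (1.10, 0.165) did not pass, while Acta2 (0.25, 0.0354), Tagln (0.30, 0.0299), Tpm2 (0.49, 0.0159), Mylk (0.88, 0.0064), Pdlim7 (1.24, 0.0254) and Pdlim3 (1.64, 0.0351) did. Without sample 3, Cald1 (0.43, 0.108), Csrp2 (0.40, 0.226), Lpp (0.76, 0.0727), Tpm1 (0.56, 0.059) and Sorbs2 (2.14, 0.0906) did not.

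**Figure D3:**
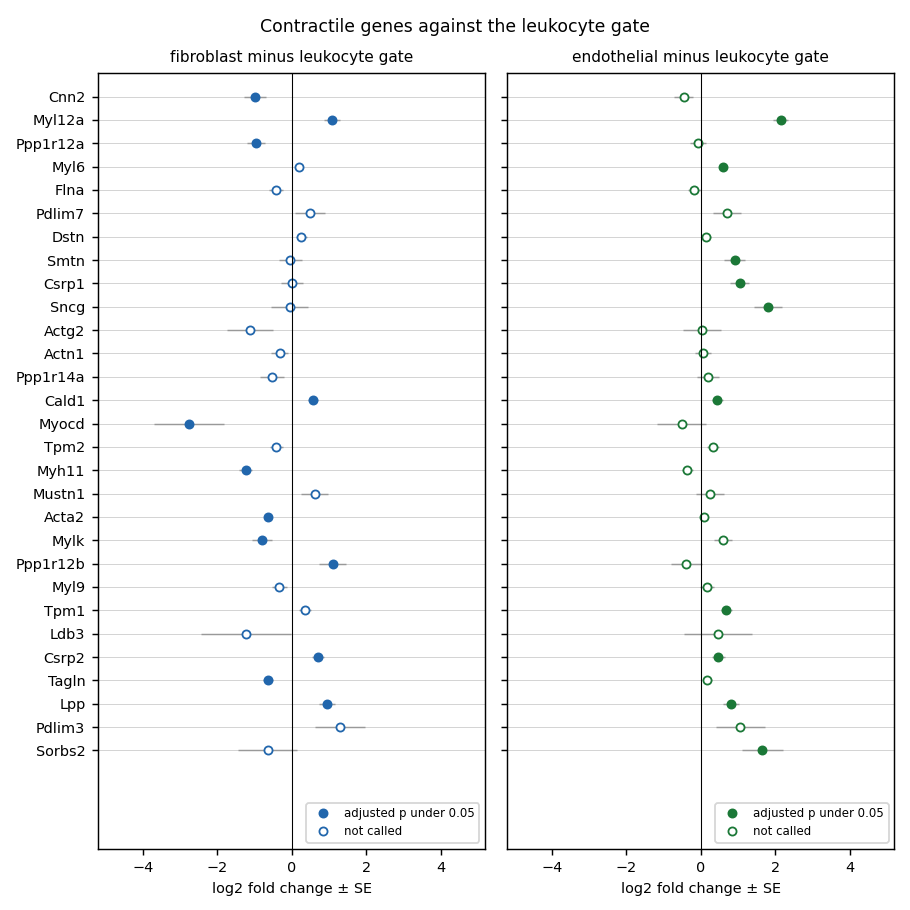
Log2 fold change ± SE of the 29 contractile genes outside the gate rule against the leukocyte gate, for fibroblasts (left) and endothelial cells (right), 3 hashtag samples each; filled points have an adjusted p under 0.05. On the left Acta2, Tagln and Myh11 lie below 0, and on the right the 10 filled points all lie above 0, with Myl12a, Sncg and Sorbs2 farthest out.

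Set against each other, many contractile genes were higher in endothelial cells than in fibroblasts, but this depended on the cell filter. Of the 29 genes, 16 were higher, 1 lower (Ppp1r12b, -1.49 ± 0.28, adjusted p = 8.21e-05) and 12 not called, beside 18.4% of all genes higher and 18.3% lower. The hashtag samples of 20 did not overlap, beside 46.3% of all genes. Acta2 differed by 0.73 ± 0.11 and Tagln by 0.81 ± 0.11. When barcodes needed 1000 or more UMIs and no more than 10% mitochondrial ones, Acta2 differed by -0.01 (adjusted p = 0.984), Tpm1 by -0.03 (0.917), Myl9 by -0.53 (0.0584) and Tagln by 0.08 (0.758). Under that filter Csrp2 (-1.23, adjusted p = 1.57e-05), Lpp (-0.83, 0.00763) and Cald1 (-0.46, 0.0141) passed as lower in endothelial cells and Actn1 (0.83, 0.0206) as higher. All barcodes already held at least 1229 UMIs, so only the mitochondrial limit removed any. Hashtags were called anew on those kept. The sums then held 18, 20 and 24 endothelial cells and 55, 27 and 34 fibroblasts. Median mitochondrial content was 14.0% in the endothelial gate and 9.50% in the fibroblast gate, and its part in the difference was not tested. Of the 17 calls, 7 held in all alternatives: Ppp1r12b, Myl12a, Sncg, Csrp1, Mylk, Sorbs2 and Ppp1r12a.

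The pericyte gate, with 7 barcodes and 17226 UMIs, was too small for a test. Its pooled counts held 49 UMIs of Acta2 (2845 CPM, exact 95% Poisson interval 2104 to 3761), 20.2% of the muscle level, and 33 of Cald1. Ppp1r14a stood out with 23 UMIs, 154% of the muscle level (97.4% to 231%), an interval that holds 100%. Actg2, Des, Myocd, Pdlim3, Sncg and Synpo2 had 0 UMIs, which allows up to 174 CPM by 3 counts, a one-sided limit. The exact interval used for the other genes ends at 214 CPM. That end lay at 262%, 157% and 113% of the muscle level for Des, Myocd and Actg2. The 0 of these genes thus shows no difference from muscle. Des and Synpo2 are genes of the SMC rule, which kept barcodes rich in them out of this gate. Pericytes contract capillaries and are known to express Acta2 at varying levels.

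Seen per cell, the share with at least 1 UMI followed these levels. With each cell thinned to 1000 UMIs, the median over the 33 genes was 56.2% of SMC cells, 8.92% of fibroblasts, 16.3% of endothelial cells and 15.2% of leukocytes. The 33 include Des, Cnn1, Lmod1 and Synpo2, whose shares the gate rule bounds. Without thinning the median over the 33 genes was 96.3%, 34.7%, 40.7% and 31.8%, at median depths of 7232, 4244, 2443 and 2856 UMIs. After thinning, Acta2 was seen in 99.6% of SMC cells, 60.7% of fibroblasts, 79.1% of endothelial cells and 76.8% of leukocytes, so its share outside muscle was no higher than in leukocytes beyond counting error. Des was seen in 5.36% of thinned SMC cells, the lowest share of the 33 genes, and in 0.662% of leukocytes.

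Within the SMC gate the genes differed in how evenly cells carried them. The measure is the variance of UMIs over their mean across the 7113 thinned cells, which is close to 1 for counting noise alone. The abundant genes Acta2, Tagln and Myh11 had 2.67, 2.07 and 2.05. Among the rarer genes, those with a mean under 0.5 UMIs, Ldb3, Cnn2 and Ppp1r12b lay at 1.01, 1.01 and 1.01, while Des, Sncg, Mustn1 and Actg2 reached 1.89, 1.48, 1.40 and 1.35. Des was the most concentrated. Unthinned, 15.9% of SMC barcodes held a Des UMI, and the 5% of barcodes with most Des (356) held 70.3% of its UMIs. The same 5% share held 33.1% for Sncg, 29.6% for Actg2, 21.7% for Mustn1 and 11.1% for Acta2. The 508 barcodes with at least 3 Des UMIs, 7.14% of the gate, held 81.3% of all Des UMIs. Des is 1 of the 5 genes that chose the gate, so barcodes rich in Des could enter through it.

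**Figure D4:**
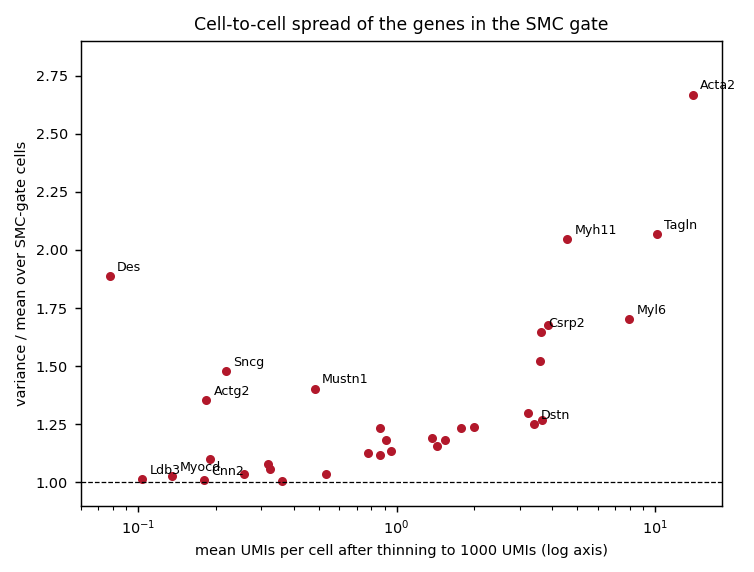
Variance over mean of UMIs per cell against mean UMIs per cell (log axis) for the 33 genes in 7113 SMC-gate cells thinned to 1000 UMIs; the dashed line at 1 is counting noise. Des (1.89 at a mean of 0.0777) stands far above genes of like abundance such as Ldb3 (1.01).

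The highest correlations from cell to cell joined Acta2 to another abundant gene. Across thinned cells, log2(UMIs + 1) of Tagln and Acta2 had a Pearson correlation of 0.472, Myl6 and Acta2 0.406 and Tpm2 and Acta2 0.403, with no test, since the cells share libraries and animals. Some other pairs of abundant genes were far lower, such as Cald1 and Myl6 at 0.076 and Myl6 and Myh11 at 0.062. Des and Actg2 had 0.067, which in sparse counts is no finding.

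Cells of the SMC gate were then picked by a pair of genes outside the list that mark the large muscle clusters of the series. Tnnt2 cells (Tnnt2 at least 2 UMIs, Pln 0) numbered 989 barcodes and Pln cells (Pln at least 2 UMIs, Tnnt2 0) 281. The rest of the 7113 barcodes, the greater part of the gate, were in neither group. Tnnt2 encodes cardiac troponin T and Pln phospholamban, an inhibitor of the calcium pump. Their median depths were 7969 and 7828 UMIs and their median mitochondrial content 9.41% and 9.61%, and the 33 genes made up 7.96% and 7.35% of UMIs. Hashtagged cells numbered 91, 67 and 61 Tnnt2 cells and 23, 15 and 21 Pln cells.

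Des and, less firmly, Actg2 were the contractile genes called between the muscle groups. Of 33 genes, 2 were higher in Tnnt2 cells, 0 lower and 31 not called, beside 0.294% of 4420 genes higher and 0.294% lower. The hashtag samples of 10 did not overlap, beside 15.5% of all genes. In the lower direction edgeR gave 3 genes an unadjusted p under 0.05 and DESeq2 called 0. Des had 262, 216 and 254 CPM in the Tnnt2 cells of hashtag samples 1, 2 and 3 and 82.2, 56.5 and 24.5 in the Pln cells (log2 fold change 2.14 ± 0.26, adjusted p = 1.72e-10). Every Tnnt2 value was over 2 times every Pln value. With cells chosen by Itga8 alone it was 2.15 (adjusted p = 3.26e-12), and over all alternatives run it lay between 1.77 and 2.61, with the highest adjusted p, 0.0453, without hashtag sample 3. Of hashtagged Tnnt2 cells 36.3%, 37.3% and 39.3% held a Des UMI, and of Pln cells 30.4%, 20% and 14.3%, where the Pln intervals are wide (13.2% to 52.9% for hashtag sample 1). Actg2 had 245, 199 and 335 CPM in Tnnt2 cells and 115, 137 and 117 in Pln cells (1.09 ± 0.21, adjusted p = 2.91e-04). Its groups did not overlap, but the call was lost without hashtag sample 3 (0.86, adjusted p = 0.776) and in DESeq2 (1.05, adjusted p = 0.637).

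Of the genes not called, Acta2 had 14330, 14676 and 14989 CPM in Tnnt2 cells and 13211, 13525 and 14273 in Pln cells (0.10 ± 0.06, adjusted p = 0.775). Its groups lay just apart in CPM and overlapped once TMM-scaled, where the lowest Tnnt2 value was 14286 and the highest Pln value 14346. Sncg leaned the other way, at 245, 291 and 301 against 329, 363 and 509 CPM, without overlap (-0.52 ± 0.15, adjusted p = 0.0893). Myh11 (0.25 ± 0.07, adjusted p = 0.0952), Flna (0.28 ± 0.08, 0.123), Cnn1 (0.30 ± 0.09, 0.16) and Myocd (0.51 ± 0.24, 0.514) were not called. Without the filter on low counts Myh11 (0.36, adjusted p = 0.00196), Flna (0.39, 0.00761) and Cnn1 (0.41, 0.0162) passed. The median over the 33 genes was 0.13, beside 0.00 over all genes.

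**Figure D5:**
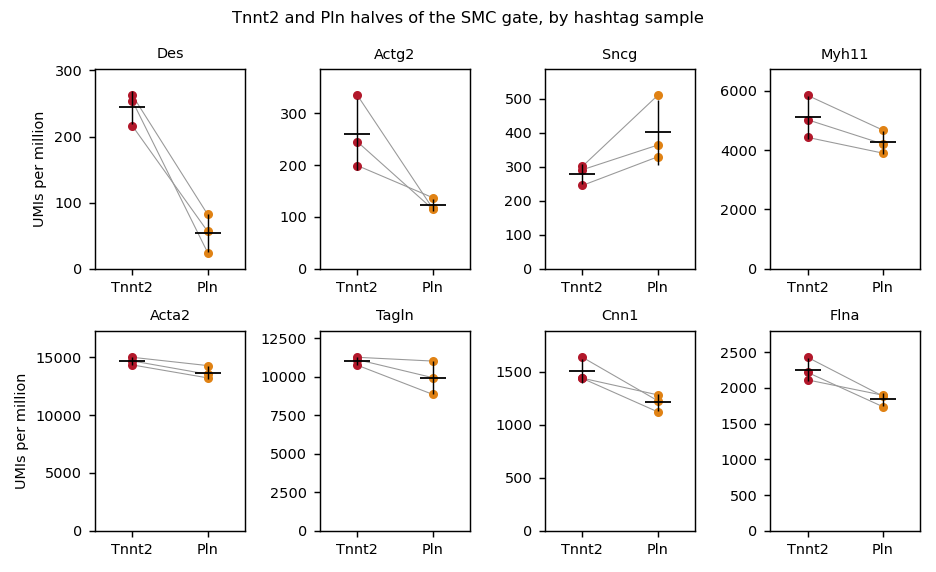
CPM of 8 contractile genes in Tnnt2 cells and Pln cells of the SMC gate; points are the 3 hashtag samples, lines join the same sample, and the bars are the mean ± SD. Des and Actg2 are higher in Tnnt2 cells in 3 of 3 samples without overlap, and Sncg is lower in 3 of 3.

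Genes around the apparatus that are not among the 33 moved less as a group. A list of 40 (non-muscle actins and myosins, signalling to myosin, adhesion and dense plaque, transcription) had 38 tested members; Srf and Mrtfa did not pass the low-count filter. Against the SMC gate, 4 were higher in fibroblasts, 24 lower and 10 not called, with a median of -1.02, beside the 19% of all genes higher and 18.4% lower. The largest drops were in adhesion genes, Pgm5 (-4.64 ± 0.38), Tns1 (-2.91 ± 0.19) and Filip1l (-2.37 ± 0.18), and of 11 adhesion and dense plaque genes 10 were lower. Klf4, a repressor of smooth muscle genes in cultured cells, was 2.94 ± 0.20 higher, at 241 against 31.3 TMM-scaled CPM, followed by Ppp1r14b (1.76 ± 0.15) and Myl12b (0.89 ± 0.17). In endothelial cells 9 were higher, 23 lower and 6 not called, beside 24.3% and 25.2% of all genes. There Klf4 (4.38 ± 0.18), Tpm3 (2.14 ± 0.14) and Myh9 (1.95 ± 0.14) led upward, the last pair being listed with the non-muscle actins and myosins. Prkg1 (-2.95 ± 0.36), Myh10 (-2.20 ± 0.16) and Filip1l (-1.81 ± 0.16) led downward. Of the 8 genes listed with the non-muscle actins and myosins, 5 were higher and 3 lower in endothelial cells. Between Tnnt2 and Pln cells, 0 of 37 tested were called in edgeR in either direction, 4 had an unadjusted p under 0.05, and DESeq2 called 0.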

How the data were processed

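Per the file headers, the deposited values are raw UMI counts from Cell Ranger 6.0.1, for genes and hashtags, with no normalization. The submitters' processing notes name mm10 and Seurat 4.0.5, with no annotation. The deposited hashtag reference pairs hashtags 1, 2 and 3 with 11, 12 and 13 weeks. The labels list 4 gene expression and 4 hashtag libraries, but all barcodes carry 1 suffix, which hides the library they came from, and no barcode was present more than once. The members, gates and gene lists were chosen with earlier results of these data known.

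Hashtags were called with HTODemux (Seurat 5.3.0, positive quantile 0.99) on centred log ratios per hashtag. No doublet caller was run; barcodes in 2 gates or with several hashtags stayed out of the tests. Counts were summed per hashtag sample and gate (at least 10 cells each), giving 3223833 to 4305226 UMIs per SMC sum, 254097 to 416149 per fibroblast sum, 354648 to 455962 per endothelial sum and 76674 to 198107 per leukocyte sum. They were tested with edgeR 4.0.16 (R 4.3.3; glmQLFit, glmQLFTest, TMM, filterByExpr) with the hashtag as a block, since gates of 1 hashtag are taken to come from the same animal, and all gates shared 1 fit. P-values were adjusted by Benjamini-Hochberg over all genes tested and called under 0.05. Errors of fold changes are standard errors. P-values rest on the scatter left after gate and hashtag sample were fitted. That scatter was estimated over all sums of a fit and moderated across genes. CPM are counts scaled to a common total per sum; levels named TMM-scaled use edgeR's factors. The script was tested on simulated data. Exact binomial and Poisson intervals are at 95%.

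All 33 members are reported. From the list of 40 other genes, the 3 with the largest called changes in each direction are named. Alternatives were DESeq2 1.42.0, no low-count filter, no block, no TMM factors, each hashtag sample left out, a stricter cell filter, stricter gates, muscle chosen by Itga8 alone and another hashtag caller. The comparisons of endothelial cells with fibroblasts and of muscle with leukocytes, the caller in robust SDs, and the Itga8 gate for Tnnt2 and Pln cells were added after seeing the data. Promoter windows were searched for the CArG box in the RefSeq table.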

Additional observations from a re-analysis of the deposited data

How the results depend on the processing

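Against the SMC gate, the call of the 29 genes free of the gate rule held in 290 of 290 alternative values for fibroblasts. For endothelial cells it held in 319 of 319. A value held if the call was the same, with the same direction where the gene was called. Genes called in neither fit counted as held whatever their direction. Csrp1 between fibroblasts and leukocytes, for example, ran from -0.40 to 0.25 and counted as held throughout. In the other comparisons 236 of 261 values held for fibroblasts and 235 of 261 for endothelial cells against leukocytes, 251 of 290 for endothelial cells against fibroblasts, 259 of 261 for muscle against leukocytes and 292 of 297 for Tnnt2 against Pln cells. Calls that held in every alternative run were 8 of 12 for fibroblasts and 4 of 10 for endothelial cells against leukocytes, 7 of 17 for endothelial cells against fibroblasts and 1 of 2 (Des) for Tnnt2 against Pln cells. Under the stricter cell filter (1000 or more UMIs, no more than 10% mitochondrial), 835 genes were higher and 781 lower in fibroblasts than in muscle, 828 and 895 in endothelial cells than in muscle, and 683 and 734 in endothelial cells than in fibroblasts; between the last pair Acta2 (-0.00558), Myl9 (-0.529) and Tpm1 (-0.0269) reversed, and the cause was not tested. Without the low-count filter 2656 genes were lower in endothelial cells than in muscle, 2677 higher in muscle than in leukocytes and 21 higher in Tnnt2 cells, as more genes were tested. With hashtags called in robust SDs, 988 genes were higher and 920 lower in endothelial cells than in muscle, from fewer cells. DESeq2 called 6 genes higher and 2 lower in Tnnt2 cells.

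Leaving out each hashtag sample in turn left, for fibroblasts against muscle, 968 to 1237 genes higher and 878 to 1210 lower, and for endothelial cells against muscle 1308 to 1566 and 1393 to 1663. For Tnnt2 against Pln cells it left 6 to 11 higher and 1 to 14 lower, with the fewest, 6 and 1, without hashtag sample 3 and 4 lower without hashtag sample 2. The hashtag block pairs gates of the same hashtag sample. With no replicate block, 1366 genes were higher and 1340 lower in fibroblasts than in muscle, 1758 and 1816 in endothelial cells than in muscle, and 13 and 14 in Tnnt2 than in Pln cells, and no call of a contractile gene changed.

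The median share of cells with a UMI rose with depth, to 96.29% unthinned and 78.24% at 2000 UMIs for muscle, 34.71% and 17.41% for fibroblasts, 40.74% and 30.47% for endothelial cells and 31.79% and 21.71% for leukocytes. The share of UMIs from the 33 genes in muscle was 7.329% in single-hashtag barcodes. The planned ratio caller, the pericyte comparison, and the leukocyte comparisons and Tnnt2 and Pln cells under the stricter cell filter were not run, with under 10 cells in a sum. The 7 pericyte barcodes and the 15 to 23 hashtagged Pln cells limit what could be detected.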
